A study of Homo sapiens with 22 samples.

Results

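The mitochondrial chromosome (chrM) carried 3627 poly(A) sites with a mean of at least 2 raw reads over the 10 3'READS libraries of a FIP1L1 knockdown study. They were chosen by chromosome and by that mean alone, counting both strands, from 7949 chrM sites and 1618880 sites in the whole table. Kasumi-1 is a long-established line of human acute myeloid leukaemia cells with the RUNX1::RUNX1T1 fusion. The cells were transduced with lentivirus carrying a control shRNA (control), the first FIP1L1 shRNA (shRNA 1) or the second (shRNA 2), and all groups went through puromycin selection. 3'READS counts reads at the 3' ends of polyadenylated RNA, and there were 3 control, 4 shRNA 1 and 3 shRNA 2 libraries, beside 4 RNA-seq libraries per group. Replicates are labelled biological, but separate transductions are not named, so each p refers to the spread among these libraries.

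FIP1L1 is a subunit of the nuclear cleavage and polyadenylation machinery. Mitochondrial RNA is processed separately: both strands of the circular genome are transcribed into long precursors, tRNAs that lie between the genes are cut out, and the freed rRNA and mRNA ends receive short poly(A) tails from the mitochondrial poly(A) polymerase MTPAP. In several mitochondrial mRNAs the tail also completes the stop codon. Poly(A) tails are also known from mitochondrial RNA fragments on their way to decay, which is carried out by the nuclease PNPT1 with the helicase SUPV3L1.

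The 3' ends of the transcripts on which the values turn are shown as the last 24 bases of each GENCODE 29 transcript (GRCh38), 5′ to 3′ in DNA letters. They are shown because an end site and its stop codon meet there, and capitals mark what the gene provides of its stop codon.
MT-CO3: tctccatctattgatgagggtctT
MT-ND4: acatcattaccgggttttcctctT
MT-ND2: ccccttttatactaataatcttaT
MT-CYB: aaaacaaaatactcaaatgggccT
MT-ND3: aaaaaggattagactgaaccgaaT
MT-ATP6: ctctacctgcacgacaacacaTAA
MT-ND1: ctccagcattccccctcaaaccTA
MT-CO1: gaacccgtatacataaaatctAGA
MT-CO2: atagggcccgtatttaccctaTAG
The first 5 of these end in a lone T that poly(A) extends to a stop codon, and MT-ND1 ends in TA. As annotated, MT-ATP6, MT-CO1 and MT-CO2 end in the whole stop codons TAA, AGA and TAG. All positions below are hg19 positions of the deposited table. Its chrM positions ran to 16571, and an hg19 sequence or annotation of chrM was not used here. Genes were therefore placed from the GENCODE 29 coordinates, and sites within 3 bases of an annotated end were counted as that end. Among the 8 genes with a plus-strand site of a mean of at least 1000 reads within 30 bases of the end, the site lay 1 base past the annotated end for 6. It lay 2 bases past for MT-RNR1 and 1 base before for MT-ATP6. The difference in coordinates between the chrM sequences of the builds was not resolved, so a shift of this size is not a measured cleavage offset.

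Of the 3627 sites, 1039 were on the plus strand, which carries the sense sequence of 12 of the 13 mRNAs and both rRNAs, and 2588 were on the minus strand. On the plus strand 770 lay inside genes, 28 at gene ends, 186 in the noncoding control region, 52 opposite a minus-strand gene and 3 between genes. On the minus strand 1917 lay opposite a plus-strand gene, 346 in the control region, 304 inside a minus-strand gene, 13 at such a gene's end and 8 between genes. The sites held 99.5% to 99.76% of the chrM reads of a library. Reads were concentrated: the top 4 sites held 64.7% of chrM reads over all libraries and 52 sites held 90%. In 3118 of the sites another site of the same strand lay within 24 bases, and together these held 7.47% of chrM reads. Such runs of sites at nearly every base began at position 14662 on the plus strand and 9696 on the minus strand. Of the 1610931 sites on the other chromosomes and contigs, 0.00621% had such a neighbour, so the spacing of sites in these parts of chrM differs from the rest of the deposited table. At the limit of the choice, 100 sites had a mean of exactly 2.0 reads and 99 more had 1.9. The minus-strand sites at positions 10110 and 10129 were just inside, and the plus-strand sites at 16521 and 16505 were just outside.

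Totals ran from 5666102 to 10846661 reads per 3'READS library, of which 374131 to 1508716 were on chrM, and from 12236937 to 20388437 counts per RNA-seq library. FIP1L1 itself averaged 41.3 ± 2.27 CPM (counts per 1000000 counts of the library; SD, n = 4) in the control RNA-seq, 15.4 ± 1.55 with shRNA 1 and 19.5 ± 0.787 with shRNA 2. Myeloid and progenitor markers were present in all groups at unequal levels. CD34 averaged 260.4, 51.8 and 178 CPM in control, shRNA 1 and shRNA 2, MPO 16210, 7202 and 9899, RUNX1T1 185.2, 74.0 and 141.5, CD33 72.1, 63.1 and 183, and KIT 1447, 1163 and 1452. With shRNA 1 CD34, MPO and RUNX1T1 were lower by log2 values of -2.33, -1.17 and -1.32 (edgeR adjusted p = 7.8e-14, 1.06e-09 and 3.98e-13), and with shRNA 2 CD33 was higher by 1.34 (adjusted p = 5.81e-12). CD34, MPO and RUNX1T1 were lower with shRNA 2 as well, at -0.55, -0.71 and -0.39 (edgeR adjusted p = 5.25e-05, 2.41e-06 and 7.6e-05). With shRNA 1 KIT and CD33 were lower, at -0.32 and -0.20 (edgeR adjusted p = 0.00053 and 0.0477). The part of these differences in the results was not tested. CD38 averaged 1.82 to 3.44 CPM, and MS4A1, NCAM1, HBB and COL1A2 were at 0 in all 12 libraries. EPCAM, an epithelial marker, averaged 134, 42.2 and 138 CPM in control, shRNA 1 and shRNA 2, and its part in the results was not tested. Control replicate 3 and shRNA 1 replicate 1 stood apart: their deviations from their own group means went together across sites of all chromosomes (r = 0.418, a description over sites that share libraries and depth). shRNA 1 replicate 2 was also far from its group. Chi-square over degrees of freedom, larger where a pair of libraries differs more, was 17.9 to 19.8 against replicates 1, 3 and 4. Between replicates 3 and 4 it was 3.00. Fits without the libraries that stood apart keep shRNA 1 replicate 2. In RNA-seq, shRNA 1 replicates 3 and 4 gave 3.91 and the group's other pairs 11.2 to 29.4.

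Mitochondrial sites held a lower share of all reads in every shRNA 1 library, and a higher share in every shRNA 2 library, than in any control library. They made up 11.7%, 10.7% and 9.48% of reads in the control libraries (10.6% ± 1.12, SD, n = 3). The shRNA 1 libraries had 6.56%, 7.56%, 8.52% and 8.87% (7.88% ± 1.04, n = 4), and the shRNA 2 libraries 14.9%, 13.9% and 14.3% (14.4% ± 0.511, n = 3). No library of one group overlapped another group. Both comparisons with control use the same control libraries. A two-sided exact permutation test gave p = 0.0571 for shRNA 1 against control, 0.1 for shRNA 2 against control and 0.0571 for shRNA 2 against shRNA 1. These are the smallest values that the numbers of libraries allow, and 0.114, 0.12 and 0.114 after Benjamini-Hochberg adjustment over 6 such tests. The most abundant site of each strand, at plus 9991 and minus 219, bore on the gap between shRNA 1 and control: counted without both, the difference went from -2.74 to -0.0241 percentage points (exact permutation p = 0.971). For shRNA 2 against control it went from 3.77 to 3.42 points. The remainder of -0.0241 points for shRNA 1 is a net of rises and falls at other sites. Sites inside the rRNA genes averaged 0.399% of all reads in control and 1.49% with shRNA 1. Minus-strand sites opposite plus-strand genes or between genes averaged 0.318% and 0.171%. The ends of MT-ND4, MT-ATP6, MT-CYB, MT-ND2 and MT-ND3 also held lower mean shares of all reads with shRNA 1. Fewer mitochondria, less RNA per mitochondrion and a change in the nuclear reads that share the library cannot be told apart in a share.

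**Figure D1:**
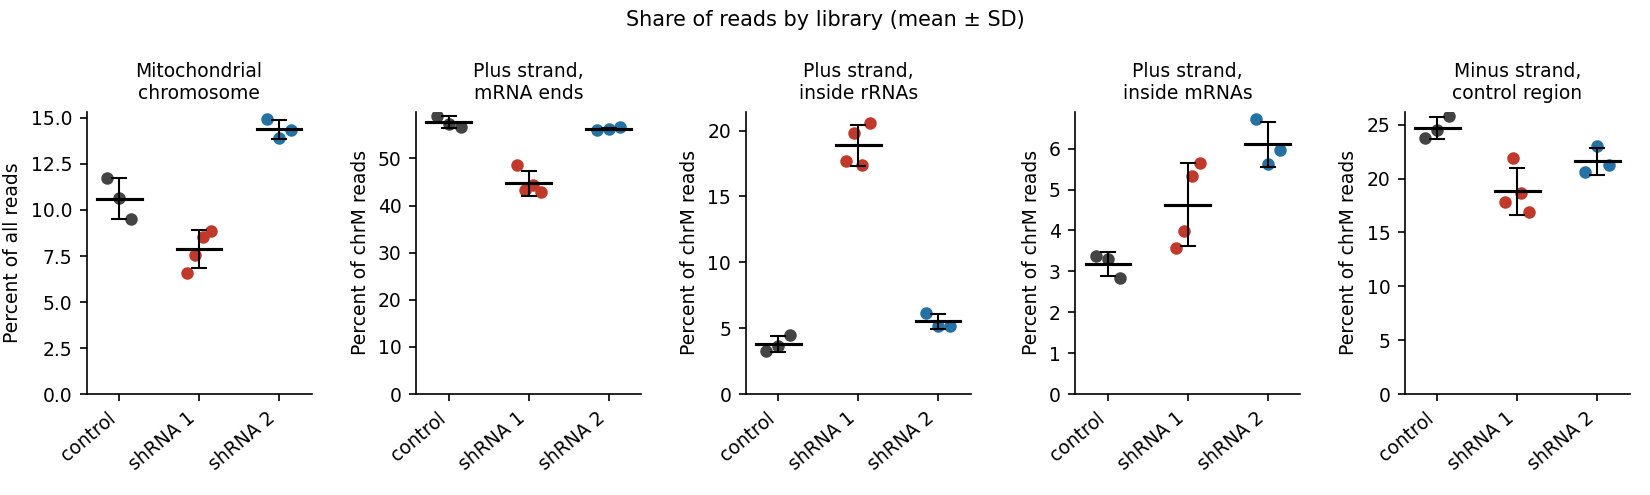
Percent of reads by library (points), with the mean (long bar) and SD (whiskers) of the 3 control, 4 shRNA 1 and 3 shRNA 2 libraries. The first panel is the chrM share of all reads and the others are shares of chrM reads: sites inside rRNAs took 17.4% to 20.6% in the shRNA 1 libraries and no more than 6.19% in any other library.

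Within chrM the kinds of site held different shares by group, given here without a test. Sites at the ends of mRNAs held 57.7% ± 1.29 of chrM reads in control (56.6% to 59.1%), 44.8% ± 2.63 with shRNA 1 (42.8% to 48.6%) and 56.3% ± 0.237 with shRNA 2. Sites inside the 2 rRNA genes held 3.80% ± 0.630 in control, 18.9% ± 1.57 with shRNA 1 and 5.53% ± 0.574 with shRNA 2. Sites inside mRNAs held 3.17% ± 0.295, 4.63% ± 1.01 and 6.10% ± 0.556 in the same order. Minus-strand sites of the control region held 24.7% ± 1.02, 18.8% ± 2.19 and 21.6% ± 1.26. Shares of one total are not independent: a gain in one kind lowers the others. For sites inside mRNAs every library of both shRNA groups was above every control library, and the shRNA groups overlapped: shRNA 1 had 3.58%, 3.98%, 5.32% and 5.65% and shRNA 2 6.71%, 5.62% and 5.97%.

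Single sites were tested on 2 scales. Values per library are given as RPM, reads per 1000000 reads of the library. The level is the site's reads among all reads of the library, scaled by TMM, and the share is its reads among the chrM reads of the library. Both used the edgeR quasi-likelihood F test over all 29286 sites of the genome that passed the filter on low counts, with Benjamini-Hochberg adjustment and a threshold of 0.05. Of the 3627 members 1343 passed that filter, which asks for a minimum count in at least as many libraries as the smallest group holds, whichever group they belong to. A site can thus pass through the group where it is high, and the others were not tested. TMM put log2 levels lower than scaling by library totals would, by 0.11 for shRNA 1 and 0.23 for shRNA 2 against control. On the level scale 72 members were called higher and 186 lower with shRNA 1, where 8.79% and 8.42% of all tested sites were called. With shRNA 2, 117 were higher and 3 lower, against 3.92% and 4.43% of all tested sites. Between the shRNAs, 386 were higher and 32 lower with shRNA 2 than with shRNA 1, against 10.4% and 12.2%. On the share scale the counts were 141 higher and 65 lower with shRNA 1 (10.5% and 6.75% of all tested sites), 97 and 7 with shRNA 2 (6.59% and 2.53%), and 93 and 82 between the shRNAs (12.5% and 9.68%). The split of share calls moved with the denominator. Without the most abundant site in it, 101 were higher and 100 lower with shRNA 1, 60 and 8 with shRNA 2, and 110 and 73 between the shRNAs. As a share of the strand's reads the counts were 128 and 40, 80 and 3, and 88 and 92. The median log2 level of the tested members was -0.65 with shRNA 1 and 0.25 with shRNA 2, beside 0.01 and -0.01 over all tested sites. Runs of neighbouring sites share reads of one region and are not independent items. Among the 509 members without a neighbour within 24 bases, of which 459 were tested, 54 were higher and 53 lower in level with shRNA 1, and 100 higher and 0 lower with shRNA 2. Leaving out 1 library moved the level calls for shRNA 1 to 160 without control replicate 2 and to at most 337. For shRNA 2 they came to 42, 36 and 60 without control replicates 1, 2 and 3, to 15, 48 and 40 without shRNA 2 replicates 1, 2 and 3, and to 201 and 194 without shRNA 1 replicates 1 and 2. Without both libraries that stood apart, 1628 members were tested. In level 91 were then higher and 230 lower with shRNA 1, 159 and 5 with shRNA 2, and 522 and 45 between the shRNAs, and in share the counts were 171 and 87, 146 and 7, and 172 and 101.

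The main ends of mRNAs came first in reads. The site at plus 9991, the end of MT-CO3 (cytochrome c oxidase subunit 3), held more reads than any other member. It had 35080, 30330 and 36320 RPM in control, 21060, 12790, 14120 and 14670 with shRNA 1, and 34200, 34570 and 37360 with shRNA 2. All shRNA 1 libraries lay below all others, while control and shRNA 2 overlapped. Its level fell with shRNA 1, by a log2 value of -1.22 (SE 0.226, edgeR adjusted p = 0.00191), and shRNA 2 gave -0.17 (SE 0.242, adjusted p = 0.719). In share shRNA 1 gave -0.65 (SE 0.242, edgeR adjusted p = 0.0773), which missed the threshold: 3 of its libraries had 16.5% to 16.9% of chrM reads at this site and replicate 1 had 32.1%, inside the control range of 28.5% to 38.3%. Counting error was small beside the spread: it came to 0.188% of the site's mean in control, where the SD between libraries was 9.33%.

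The end of MT-ATP6 at plus 9206, an ATP synthase subunit whose gene adjoins MT-CO3 with no tRNA between them, had 6714, 6004 and 2739 RPM in control. The shRNA 1 libraries had 1206, 1561, 3311 and 3609 and the shRNA 2 libraries 10600, 9226 and 8948. shRNA 2 lay above both other groups, and control replicate 3 lay among the shRNA 1 libraries. Between the shRNAs the level differed by a log2 value of 1.86 (SE 0.369, edgeR adjusted p = 0.00278) and the share by 1.17 (SE 0.3, adjusted p = 0.0125), both higher with shRNA 2; without shRNA 2 replicate 1 the share difference was 1.12 (adjusted p = 0.0521). Against control shRNA 1 gave -1.19 in level (edgeR adjusted p = 0.0356). That call was lost when 7 single libraries were left out in turn: control replicates 1 and 2 (adjusted p = 0.154 and 0.117), shRNA 1 replicates 1 and 2 (0.055 and 0.0901) and each shRNA 2 replicate (0.0509 to 0.053).

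The other large mRNA ends did not pass the test against control in either scale. MT-ND4 (plus 12138), a complex I subunit, had 9734 to 19220 RPM in control, 6155 to 14290 with shRNA 1 and 22880 to 26500 with shRNA 2. The ends of MT-CYB (plus 15888, cytochrome b of complex III), MT-ND2 (plus 5512) and MT-ND3 (plus 10405), both complex I subunits, had control means of 3167, 3029 and 896 RPM. Their shRNA 1 means were 2380, 1991 and 550 and their shRNA 2 means 5050, 4754 and 1896. In these 4 ends the shRNA 2 libraries lay above every control and shRNA 1 library. Between the shRNAs, the log2 level differences of the 4 were 0.90, 0.98, 1.13 and 1.65 in the order named, all called by edgeR (adjusted p = 0.0333, 0.0219, 0.0087 and 0.00238). The MT-ND4 call was lost without shRNA 1 replicate 2 (edgeR adjusted p = 0.051) or any shRNA 2 replicate (0.112, 0.075 and 0.076), and the MT-CYB call without shRNA 2 replicate 1 or 2 (0.0798 and 0.0693). In share only MT-ND3 of these passed, at 0.91 (SE 0.291, edgeR adjusted p = 0.0357), and that call was lost without shRNA 1 replicate 3 (0.0554) or any shRNA 2 replicate (0.0865, 0.07 and 0.16). Over all 14 members at mRNA ends, all of them tested, 3 were lower and 0 higher in level with shRNA 1 and 1 was higher and 0 lower with shRNA 2, with median log2 levels of -0.48 and 0.45. The 14 are not 14 separate mRNA ends. Past plus 14662 sites lie at nearly every base, and several neighbouring positions at the MT-CYB end are each a member. The counts and medians therefore include that end more than once. Of all tested sites, 8.42% were called lower with shRNA 1 and 3.92% higher with shRNA 2. The count of 3 was 6 without both libraries that stood apart and 2 to 4 without 1 library: 2 without control replicate 1 or 2, shRNA 1 replicate 1 or 2 or any shRNA 2 replicate, and 4 without control replicate 3. The count of 1 was 0 without any single control or shRNA 2 library, 2 without shRNA 1 replicate 1 or 2, and 1 without shRNA 1 replicate 3 or 4.

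**Figure D2:**
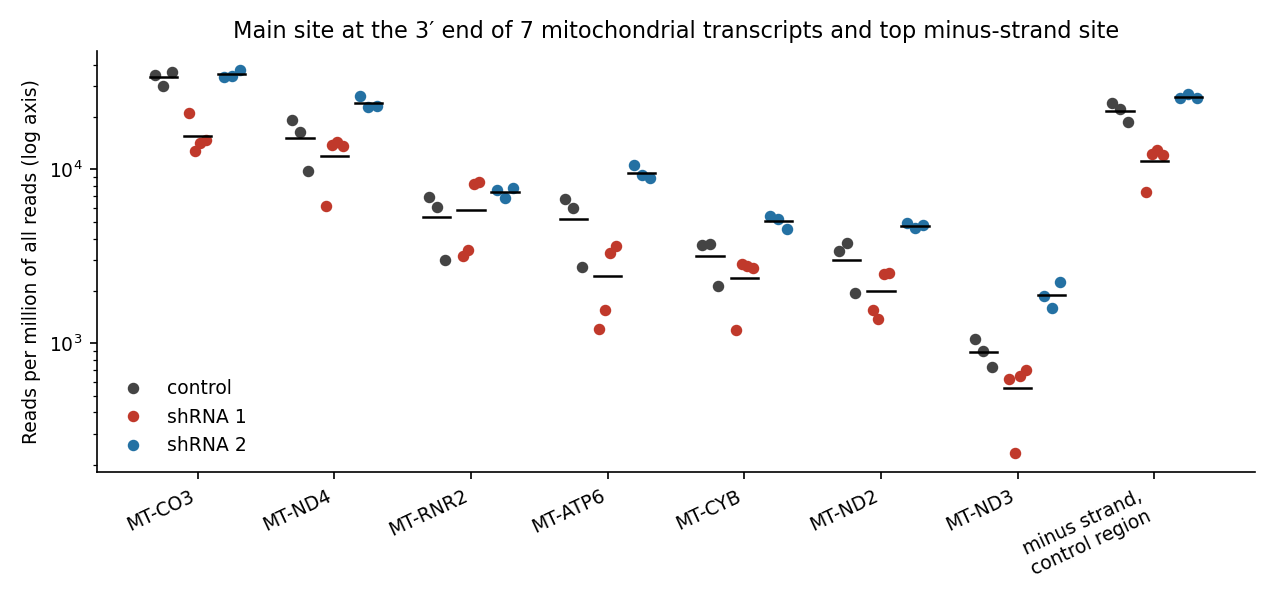
RPM (log axis) in each library at the main end site of 7 transcripts and at the top minus-strand site, with a bar for the group mean. The shRNA 2 points lie above the control points at MT-ND4, MT-ATP6, MT-CYB, MT-ND2 and MT-ND3, and the shRNA 1 points lie below all others at MT-CO3 and at the minus-strand site.

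End sites did not follow RNA-seq abundance across the 13 mRNAs. MT-CO1 (cytochrome c oxidase subunit 1) had the highest control level per length, 17370 CPM per kilobase, yet the table lists no site within 30 bases of its annotated end. MT-CO3, next at 12470, had 33920 RPM within 30 bases, and MT-CO2, at 11300, had 3.45. MT-ND1, at 7662, had 0 in the control libraries and a mean of 1.3 raw reads over the 10 libraries. MT-ND5, at 2328, had 13.3 RPM. MT-CO1 and MT-ND5 are known to carry noncoding sequence past the coding end, so a window at the annotated end may miss them; the sources used here do not say what the deposited table filtered. The mRNAs with many reads at the end were MT-CO3, MT-ND4, MT-ATP6, MT-CYB, MT-ND2 and MT-ND3, which include all 5 of the printed ends that stop at a lone T.

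**Figure D3:**
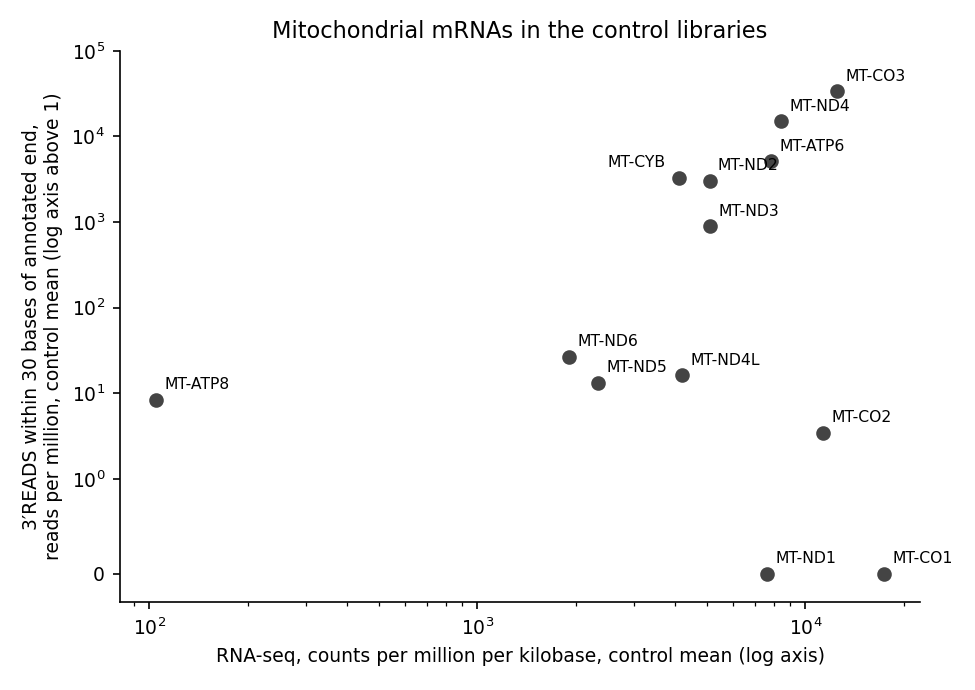
RNA-seq level in CPM per kilobase (x, log axis) against 3'READS RPM within 30 bases of the annotated 3' end (y, log axis above 1 and linear below), control means of 4 and 3 libraries. MT-CO1 and MT-ND1 sit at 0 on the y axis and MT-CO2 at 3.45, while MT-CO3 sits at 33920.

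Sites inside the rRNAs were higher with shRNA 1 and, less so, with shRNA 2. MT-RNR1 and MT-RNR2 encode the 12S and 16S rRNAs of the mitochondrial ribosome. In level these sites summed to 3834, 3863 and 4265 RPM in control, 11590, 15010, 14840 and 18250 with shRNA 1, and 9240, 7243 and 7431 with shRNA 2. The 3 groups did not overlap, with shRNA 1 highest and control lowest. Of the 70 sites, 67 were tested. On the share scale 60 were higher and 0 lower with shRNA 1 (median log2 share 2.08, beside 0.12 over all tested sites) and 18 were higher and 0 lower with shRNA 2 (median 0.64, beside 0.24). On the level scale the counts were 46 higher and 0 lower with shRNA 1 and 18 higher and 0 lower with shRNA 2. Of all tested sites, 10.5% and 6.59% were called higher in share with shRNA 1 and shRNA 2, and 8.79% and 3.92% in level. Without the filter on low counts, 58 of all 70 were higher in share with shRNA 1 and 15 with shRNA 2. Between the shRNAs 45 were lower and 0 higher in share with shRNA 2, where 9.68% and 12.5% of all tested sites were called. Leaving out 1 library gave 51 to 62 share calls for shRNA 1. For shRNA 2 it gave 6 and 8 without control replicates 1 and 2, 4, 11 and 7 without shRNA 2 replicates 1, 2 and 3, and up to 24 otherwise. Without both libraries that stood apart, 60 of 68 tested were higher with shRNA 1 and 31 with shRNA 2.

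Sites called with shRNA 1 lay in both rRNA genes. Inside MT-RNR1, 17 of 22 tested sites were higher in share with shRNA 1 and 3 with shRNA 2, and the gene's internal sites held 0.474%, 2.37% and 0.720% of chrM reads in control, shRNA 1 and shRNA 2. The 3 calls with shRNA 2 were 0 without control replicate 1 or 2 or shRNA 2 replicate 1 or 3, 2 without shRNA 2 replicate 2, and 7 and 5 without shRNA 1 replicates 1 and 2. Inside MT-RNR2 it was 43 of 45 and 15 of 45, and 3.32%, 16.5% and 4.81% of chrM reads. The 15 calls with shRNA 2 were 6, 8 and 10 without control replicates 1, 2 and 3, 4, 9 and 7 without shRNA 2 replicates 1, 2 and 3, and at most 17. The 3' end of MT-RNR2 itself, at plus 3230, did not pass. It had 6947, 6058 and 3019 RPM in control, 3184, 3453, 8219 and 8417 with shRNA 1, and 7628, 6804 and 7765 with shRNA 2. Its share gave a log2 difference of 0.53 with shRNA 1 (SE 0.296, edgeR adjusted p = 0.235). The other of the 2 members at rRNA ends, plus 1603 at the end of MT-RNR1, was called higher with shRNA 1 in level and in share. With shRNA 2 it was not called. Of all tested sites, 8.79% and 10.5% were called higher in level and share with shRNA 1. Without the filter on low counts the share call at plus 1603 was kept and the level call was lost.

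The internal site at plus 1936 of MT-RNR2 showed the largest gain with shRNA 1 among the sites named for their reads. It had 171.9, 163.2 and 166.5 RPM in control, 1028, 1582, 1543 and 1911 with shRNA 1, and 658.9, 422.2 and 505.1 with shRNA 2. The 3 groups were wide apart. The log2 share rose by 3.59 with shRNA 1 (SE 0.238, edgeR adjusted p = 3.56e-07) and by 1.21 with shRNA 2 (SE 0.223, adjusted p = 0.00437), and the log2 level rose by 3.06 and 1.43. The most used internal site, at plus 3043, had 937.7, 1017 and 1618 RPM in control, 3168, 4033, 2694 and 3207 with shRNA 1, and 1864, 1452 and 1212 with shRNA 2. Only shRNA 1 stood clear of control, with a log2 share 1.88 higher (SE 0.291, edgeR adjusted p = 0.000601), beside -0.14 with shRNA 2 (SE 0.293, adjusted p = 0.81). At plus 3123 the share rose by 2.62 and 1.16 (edgeR adjusted p = 1.06e-05 and 0.00967), and without shRNA 2 replicate 1 the latter was 1.12 (adjusted p = 0.0543). At plus 3175 the shRNA 1 share difference of 1.08 (edgeR adjusted p = 0.0476) missed the threshold without any of 8 single libraries, with adjusted p between 0.0682 and 0.136; only leaving out shRNA 1 replicate 1 or 2 kept it.

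**Figure D4:**
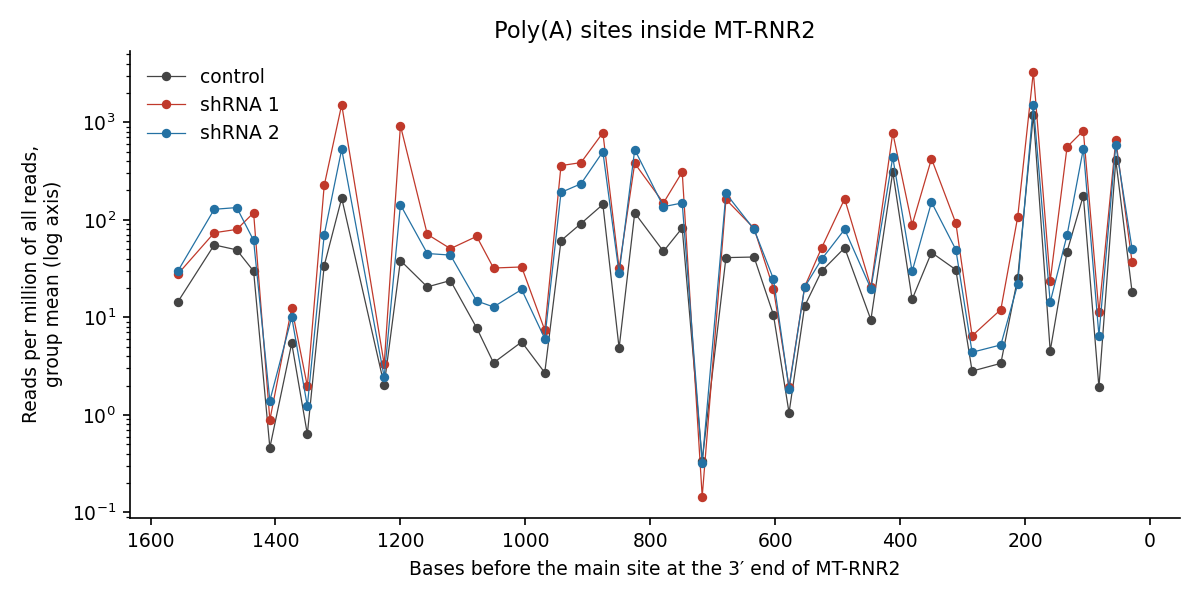
Mean RPM (log axis) of the 47 sites inside MT-RNR2 by their distance in bases before the gene's main end site, for the 3 groups. Thin lines join the sites of a group and a group mean of 0 is not drawn: the sites that are high in one group tend to be high in all, and the shRNA 1 points lie above the control points along most of the gene.

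Reads of cytosolic rRNA differed as well, given without a test. The unplaced hg19 contig chrUn_gl000220 carries copies of the nuclear rDNA, which encodes cytosolic rRNA; it was chosen after its values were seen. It had 259.2, 230.0 and 323.8 RPM in control, 19730, 9983, 16450 and 18580 with shRNA 1, and 1365, 779.3 and 956.8 with shRNA 2. This is the order seen for the sites inside mitochondrial rRNAs, with shRNA 1 highest and control lowest. The part of total rRNA content, rRNA depletion or RNA quality in either result was not tested.

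Sites inside mRNAs were higher with shRNA 2. They summed to 3914, 3488 and 2657 RPM in control, 2325, 2989, 4498 and 4969 with shRNA 1, and 9919, 7749 and 8462 with shRNA 2. The shRNA 2 libraries lay above all others, and the shRNA 1 libraries spanned the control range. Of 670 such sites 327 were tested: 87 were higher and 0 lower in level with shRNA 2 (median 1.18), and 6 were higher and 6 lower with shRNA 1 (median -0.01). Without the filter 55 of all 670 were higher with shRNA 2 and 0 lower. In share 70 were higher and 0 lower with shRNA 2, and 45 were higher and 1 lower with shRNA 1. Of all tested sites, 3.92% were called higher in level with shRNA 2 and 6.59% in share. With shRNA 1 it was 8.79% in level and 10.5% in share, and 8.42% were called lower in level. The 6 higher and 6 lower with shRNA 1 are thus below the background, and the 45 of 327 lie little above it. Between the shRNAs 172 were higher and 0 lower in level with shRNA 2, where 10.4% and 12.2% of all tested sites were called. The count of 172 was 62 and 98 without shRNA 2 replicates 1 and 3, and 119 to 199 without any other single library. The shRNA 2 level count of 87 was 30, 22 and 34 without control replicates 1, 2 and 3, 9, 31 and 27 without shRNA 2 replicates 1, 2 and 3, and 134 and 133 without shRNA 1 replicates 1 and 2. It was 101 of 391 without the libraries that stood apart. The shRNA 1 share count of 45 ran from 13 without control replicate 2 to 65, and the shRNA 2 share count of 70 from 9 without its replicate 1 to 117.

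The called sites lay in several genes. Tested internal sites higher in level with shRNA 2 numbered 14 of 38 in MT-ND4, 15 of 53 in MT-ND5, 10 of 29 in MT-CO1, 9 of 19 in MT-ND2, 8 of 24 in MT-ND1 and 10 of 100 in MT-CYB, where 3.92% of all tested sites were called higher, with medians from 0.96 to 1.43 on the log2 scale. These per-gene counts rested on single libraries. Without shRNA 2 replicate 1 they were 0 in MT-ND4, MT-ND5 and MT-ND1, 1 in MT-CO1, 3 in MT-ND2 and 2 in MT-CYB. Without any other single shRNA 2 library or any single control library they were 3 to 6, 4 to 7, 1 to 2, 2 to 4, 3 to 4 and 2 to 6 in the same order. None of these 6 genes had an internal site that was called lower with shRNA 2. Internal sites of MT-CO1, whose annotated end had no listed site, summed to 655 ± 122 RPM in control (SD, n = 3), 685 ± 219 with shRNA 1 (n = 4) and 1673 ± 192 with shRNA 2 (n = 3). A further site, plus 14746, lies just before the start of MT-CYB and is not among those inside mRNAs. It was picked for that place after the values were seen, and which transcript ends there was not tested. At this site the control libraries had 208.5, 206.9 and 108.9 RPM. The shRNA 1 libraries had 72.4, 81.7, 132.4 and 123.4 and the shRNA 2 libraries 691.4, 559.9 and 568.5, so that shRNA 2 lay apart. Its level was 1.57 higher with shRNA 2 (SE 0.303, edgeR adjusted p = 0.00581) and lower with shRNA 1 (log2 -0.87, SE 0.276, adjusted p = 0.0402). The call with shRNA 1 was lost without control replicate 1 or 2, shRNA 1 replicate 1 or 2, or any shRNA 2 replicate (edgeR adjusted p from 0.0555 to 0.158). Its share was 1.37 higher with shRNA 2 (adjusted p = 0.00392) and -0.34 with shRNA 1 (adjusted p = 0.335).

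**Figure D5:**
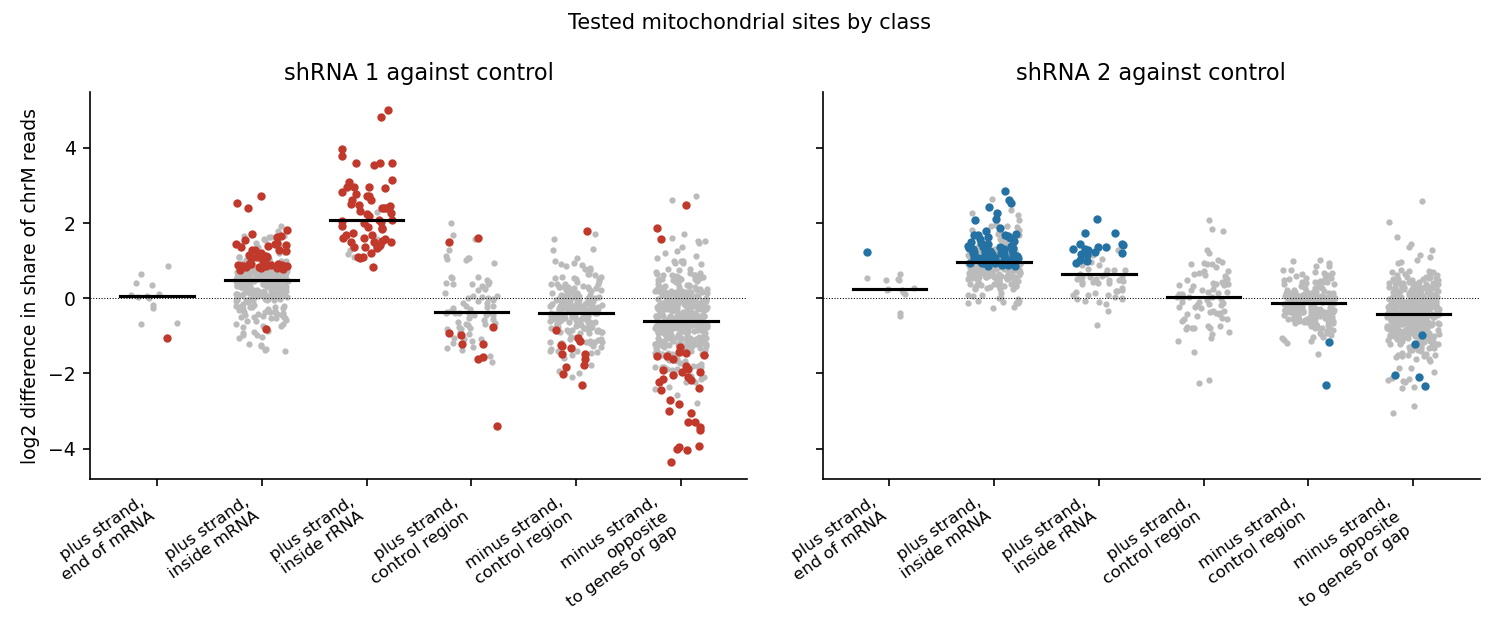
Log2 difference in share of chrM reads against control of each tested site, by class, for shRNA 1 (left) and shRNA 2 (right); coloured points passed the edgeR threshold, grey points did not, and bars are medians of the tested sites. The class inside rRNA sits at a median of 2.08 with shRNA 1, and the class inside mRNA at 0.96 with shRNA 2.

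The minus strand was dominated by the control region, the noncoding stretch with the origin of heavy-strand replication and the promoters. A short polyadenylated transcript, 7S RNA, is known from this strand of the region; whether the sites belong to it was not tested. The site at minus 219 had 24000, 22240 and 18700 RPM in control, 7412, 12190, 12910 and 12160 with shRNA 1, and 25610, 27140 and 25580 with shRNA 2. The 3 groups did not overlap. Its level fell with shRNA 1, by a log2 value of -1.07 (SE 0.219, edgeR adjusted p = 0.0038), and shRNA 2 gave 0.04 (SE 0.235, adjusted p = 0.94). Its share was 20.4% ± 0.591 of chrM reads in control, 14.1% ± 2.10 with shRNA 1 and 18.2% ± 1.21 with shRNA 2, and shRNA 1 against control missed the threshold (log2 -0.53, SE 0.181, edgeR adjusted p = 0.0551). The 5 next sites, at minus 360, 80, 174, 268 and 312, had control means of 878, 582, 528, 488 and 422 RPM and none passed against control on either scale. At minus 360 control replicate 3 had 1552 and shRNA 1 replicates 1 and 2 had 1703 and 1684, where the other 7 libraries had 521 to 777.9.

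Over the 346 minus-strand control region sites, of which 215 were tested, 58 were lower and 0 higher in level with shRNA 1 (median log2 -0.93) and 2 were lower and 1 higher with shRNA 2 (median 0.09). Of all tested sites, 8.42% were called lower in level with shRNA 1 and 4.43% with shRNA 2. In share 13 were lower and 1 higher with shRNA 1, where 6.75% and 10.5% of all tested sites were called. The 13 of 215 are thus not above the background. They became 6 without control replicate 1 or 2, 7 without any shRNA 2 replicate, 8 without shRNA 1 replicate 3 and 28 without shRNA 1 replicate 1. Of the 1925 minus-strand sites opposite plus-strand genes or between genes, 429 were tested; 80 were lower and 0 higher in level with shRNA 1 (median -1.16), and 1 was lower and 0 higher with shRNA 2 (median -0.19). In share 32 were lower and 3 higher with shRNA 1, and the 32 of 429 are near the same background of 6.75%. The 32 became 18 and 17 without control replicates 2 and 3, 21 without shRNA 1 replicate 3 and 64 without shRNA 1 replicate 1. Summed, these sites had 2272, 2902 and 3495 RPM in control, 2009, 1904, 1088 and 1263 with shRNA 1, and 2991, 2745 and 3068 with shRNA 2. shRNA 1 lay below both other groups, which overlapped. Without control replicate 2 the level counts for shRNA 1 were 38 in the control region and 53 opposite genes, and without any other single library they were at least 39 and 56. Without both libraries that stood apart, 64 of 234 tested in the control region and 93 of 588 opposite genes were lower in level with shRNA 1, and 20 and 43 in share. The whole minus strand held 26.2% to 30.6% of chrM reads in control (mean 28.2%), 18.7% to 25.1% with shRNA 1 (21.5%) and 23.1% to 25.6% with shRNA 2 (24.2%). The exact permutation p was 0.0571 for shRNA 1 against control, 0.1 for shRNA 2 against control, the smallest possible in both, and 0.171 between the shRNAs, or 0.114, 0.12 and 0.171 after adjustment over the same 6 tests.

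Some sites were named because their share was called in the same direction with both shRNAs, so their values are a description. Both comparisons share the control libraries. Inside MT-RNR2, plus 2380 had 2.83 to 6.92 RPM in control, 17.0 to 54.0 with shRNA 1 and 25.5 to 32.5 with shRNA 2. Plus 2551 had 38.3 to 43.1, 116.4 to 214.2 and 149.4 to 225.3, and plus 2405 had 60.4 to 147.2, 156.3 to 619.7 and 481.0 to 606.4. In these 3 sites every shRNA library was above every control library. At plus 2405 the level call with shRNA 1 was lost with the replicate block or without control replicate 3 (edgeR adjusted p = 0.119 and 0.0667). Its level call with shRNA 2 was lost without control replicate 3 or shRNA 2 replicate 1 (0.0537 and 0.0737). At plus 14692 and 14706, opposite the tRNA gene MT-TE, the control libraries had 0 to 1.21 RPM and the shRNA libraries 1.94 to 6.19. At both the share call with shRNA 2 (edgeR adjusted p = 0.048 and 0.0409) was not stable. It was lost with the replicate block (0.114 and 0.116), without the filter (0.0556 and 0.064), and without control replicate 1 or 2, shRNA 1 replicate 3 or any shRNA 2 replicate (up to 0.183 and 0.175). At plus 14692 it was also lost without control replicate 3, shRNA 1 replicate 4 or both libraries that stood apart, and the shRNA 1 share call with the block (0.0579). At plus 14706 the shRNA 1 share call was lost without control replicate 2 (0.0526). One site, minus 16027 in the control region, was lower with both: 130.6, 136.8 and 79.9 RPM in control, 18.9 to 23.7 with shRNA 1 and 65.7 to 73.0 with shRNA 2. Its level call with shRNA 2 (edgeR adjusted p = 0.0218) was lost without the filter (0.0578) and with the block (0.088). It was also lost without control replicate 1 or 2 or any shRNA 2 replicate (0.0963 to 0.129). No member of at least 20 reads on average was called in opposite directions on the share scale.

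The RNA-seq table gave a separate assay of the mRNAs and held the 13 mRNAs of chrM without its rRNAs. All 13 were tested by edgeR over 15834 genes: 13 were lower and 0 higher with shRNA 1, where 28.7% and 28.6% of all genes were called, and 1 was higher (MT-ND6) and 0 lower with shRNA 2, where the background was 24.7% and 25.3%. MT-CO3 averaged 9779 ± 349 CPM in control, 3526 ± 831 with shRNA 1 and 8939 ± 840 with shRNA 2 (SD, n = 4 each). Its log2 differences of -1.47 (SE 0.122, edgeR adjusted p = 1.67e-08) and -0.13 (SE 0.12, adjusted p = 0.395) stand beside -1.22 and -0.17 at its end site. MT-ATP6 gave -1.32 (SE 0.111, edgeR adjusted p = 8.79e-09) and -0.14 (SE 0.109, adjusted p = 0.308), beside -1.19 and 0.68 at its end site. For MT-ND4, MT-CYB, MT-ND2 and MT-ND3 with shRNA 2, RNA-seq gave -0.01, -0.18, -0.11 and -0.01. Their end sites gave 0.45, 0.45, 0.43 and 0.85 in level, and none of these values was called. With shRNA 1 the same mRNAs gave -0.55, -0.91, -0.50 and -1.25 in RNA-seq, beside -0.45, -0.53, -0.70 and -0.80 at their end sites.

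Nuclear genes that act on mitochondrial RNA or DNA were measured from a list of 37, of which 36 were tested. TWNK, POLG, POLG2, SSBP1, MGME1 and RNASEH1 are those on the list that act mainly on mitochondrial DNA, and the counts include them. With shRNA 1, 17 were lower and 4 higher, where 28.7% and 28.6% of all genes were called, and with shRNA 2, 20 were lower and 4 higher, where it was 25.3% and 24.7%. The 4 of 36 called higher with each shRNA are a smaller share than the background. The list had medians of -0.20 and -0.27 on the log2 scale beside 0.02 and 0.00 over all tested genes. Between the shRNAs 12 were higher and 7 lower with shRNA 2, where 29.3% and 29.4% of all genes were called. The 6 with the lowest p in both comparisons were all lower with both shRNAs, as values chosen for that. TWNK, the helicase of mitochondrial DNA replication, averaged 51.3 ± 0.716, 28.5 ± 2.86 and 25.4 ± 0.882 CPM in control, shRNA 1 and shRNA 2. SUPV3L1, the RNA decay helicase, averaged 77.5 ± 2.43, 44.3 ± 4.33 and 53.7 ± 0.816. LRPPRC, which binds and stabilises mitochondrial mRNAs, averaged 716.7 ± 11.4, 517.3 ± 86.8 and 431.5 ± 13.8. ELAC2 and TRMT10C, of the enzymes that cut tRNAs out of the precursors, averaged 92.5 and 41.6 in control, 33.8 and 30.4 with shRNA 1, and 70.2 and 28.4 with shRNA 2. TBRG4 averaged 152.4, 82.7 and 110.5. The poly(A) polymerase MTPAP, named after its values were seen, averaged 76.1 ± 1.63, 56.3 ± 6.47 and 66.4 ± 3.68, with log2 differences of -0.43 (SE 0.0788, edgeR adjusted p = 5.54e-05) and -0.19 (SE 0.0783, adjusted p = 0.0424). PNPT1, the nuclease partner of SUPV3L1 and likewise named afterwards, gave -0.16 with shRNA 1 (edgeR adjusted p = 0.0656) and -0.67 with shRNA 2 (adjusted p = 8e-08). Whether any of these levels bears on the sites was not tested.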

How the data were processed

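Both tables held raw counts as deposited by the authors: reads at each poly(A) position for 3'READS, and reads for each Ensembl gene for RNA-seq. The submitters' processing notes name hg19, STAR 2.7.3a, cutadapt 2.6 and DESeq2 without roles. The sources used here do not say how sites were defined or filtered, nor the strand setting. Counts were fitted with edgeR 4.0.16 in R 4.3.3 (quasi-likelihood F test, robust spread, TMM, filterByExpr, Benjamini-Hochberg over all sites or genes), all libraries of an assay in 1 fit with a term per group. The share fit replaced library size by the reads of the site's chromosome. Shares of reads were compared by exact permutation. The fits were also run on simulated data with a single fixed spread and independent libraries. How they hold at the spread between the real libraries was not tested. No pair of replicates agreed within sampling noise (chi-square over degrees of freedom 2.88 to 30.4 in 3'READS and 3.59 to 29.4 in RNA-seq). 0 columns lacked a sample.

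Members and lists were chosen with earlier results of these data known. Named sites were the 12 plus-strand and 6 minus-strand members with the most reads, and, among those with a mean of at least 20 reads, up to 5 each way called in one direction with both shRNAs and up to 4 called in opposite directions. Named genes were all chrM mRNAs and the 6 of the nuclear list with the lowest larger p. Alternatives were DESeq2 1.42.0, RLE scaling, nuclear reads as library size, no filter, other denominators, joined sites, a replicate block and leaving out libraries. Precision from depth covers counting error only.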

Additional observations from a re-analysis of the deposited data

Results flagged for a closer look

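In groups of 4 libraries, a library whose gap to its nearest neighbour was above Dixon's 95% limit for the share of the group's range was picked out, which chance does in about 1 of 20 groups. The check covered the RPM and chrM percent of the named sites, shares and sums of site classes, and RNA-seq levels of the named genes, and values from one library share its reads. In shRNA 1 replicate 1, plus 12138, the end of MT-ND4, had 6155 RPM where the other 3 libraries had 13590 to 14290. In the same library plus 15888, the end of MT-CYB, had 1190 RPM where the others had 2696 to 2838, and minus 219 had 7412 where the others had 12160 to 12910. Its site at plus 9991, the end of MT-CO3, held 32.1% of chrM reads where the others' held 16.5% to 16.9%, and its chosen sites held 99.6% of chrM reads where the others' held 99.75% to 99.76%.

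Other libraries were picked out as well. In shRNA 1 replicate 2, plus 14706 held 0.00677% of chrM reads where the others' held 0.00302% to 0.00321%. In shRNA 1 replicate 4, minus 16027 held 0.0221% where the others' held 0.0279% to 0.0289%. In RNA-seq, MTPAP had 60.9 CPM in shRNA 2 replicate 4 where the others had 67.8 to 68.8, TBRG4 had 116.9 in shRNA 2 replicate 3 where the others had 107.7 to 108.9, and CD34 had 43.6 in shRNA 1 replicate 2 where the others had 53.5 to 55.2.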

How the results depend on the processing

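No called value against control of a named site or chrM mRNA changed direction under any alternative run. When these 52 called values were recomputed under each, 798 results stayed past the threshold and 90 did not. Values between the shRNAs and of the nuclear genes are not among the 52. The most calls were lost under the replicate block (11) and without shRNA 2 replicate 1 (11), then without control replicate 1 or 2 (9 each) or shRNA 2 replicate 3 (9). Counts of called members were 258 and 120 in level and 206 and 104 in share for shRNA 1 and shRNA 2 against control, and 418 and 175 between the shRNAs. Fewer sites are tested once sites within 24 bases are joined: as chains this gave 110 in level and 128 in share for shRNA 1, and 234 and 97 between the shRNAs, and joining to the highest site, added after seeing the data, gave 115 for the last. DESeq2 gave 221 and 167 for shRNA 2. Without the most abundant site in the denominator the shRNA 2 share count was 68, and without the libraries that stood apart the share count between the shRNAs was 273; the cause was not tested. In RNA-seq, 2 mRNAs were called with shRNA 2 when no filter was used.

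Same-numbered libraries did not deviate together (r from -0.355 to 0.0909 in 3'READS and -0.0369 to 0.0893 in RNA-seq), so replicate numbers name libraries and do not pair them. With the replicate block the counts were 141 and 98 in level and share for shRNA 1, 48 and 36 for shRNA 2, and 99 in share between the shRNAs. The block needs libraries of the same number and so gave chrM share differences of -3.07 points for shRNA 1 and 3.77 for shRNA 2.

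Without 1 library the counts ran from 160 to 337 and 15 to 201 in level, from 112 to 285 and 17 to 172 in share, and from 201 to 487 and 81 to 212 between the shRNAs. RNA-seq counts ran from 12 to 13, 1 to 2 and 10 to 12. The chrM share differences ran from -3.31 to -2.19, 3.21 to 4.32 and 6.07 to 6.84 points, and the minus-strand share differences from -7.88 to -5.53, -4.97 to -2.81 and 1.78 to 3.90. Without the top site of each strand the chrM share difference was -0.0241 points for shRNA 1, a net of other sites' rises and falls. Between the shRNAs it was 3.44 points, and the minus-strand share difference between them turned from 2.71 to -1.13 points (exact permutation p = 0.857). Depth limits the most abundant sites little: at plus 9991 and plus 3230 counting error was 0.188% and 0.468% of the control mean, where the SD between control libraries was 9.33% and 38.6%.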
